A study of Mus musculus with 6 samples.

Results

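The circadian clock genes described here are the 10 genes Arntl, Clock, Npas2, Per1, Per2, Per3, Dbp, Nr1d1, Nr1d2 and Ciart, taken by name from a table of 47729 mouse genes. All 10 were found, and all 10 passed the filter on low counts that left 17023 genes to test. Messenger RNA was counted in epidermis of wild type C57BL/6 mice treated with AKBA gel (3 libraries) or with Control gel (3 libraries). AKBA commonly stands for acetyl-11-keto-β-boswellic acid, found in Boswellia resin, and the series' design text calls the control a blank gel. IMQ, written in the description of each control library, is left unexplained by the labels. Neither the hour at which skin was taken nor the light cycle of the mice is in the labels. Whether libraries of 1 group are from different animals is not stated, and p-values therefore reflect spread between libraries that may be technical.

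The mammalian clock is a loop of transcription that runs through the day in nearly every cell, keratinocytes of the epidermis among them. CLOCK, or its relative NPAS2, pairs with BMAL1, the product of Arntl, and the pair switches on genes with an E-box in their control regions. Among these genes are the period genes Per1, Per2 and Per3 and the cryptochromes, whose proteins hold back the pair that made them. The nuclear receptors Nr1d1 and Nr1d2 are switched on by the same pair and repress Arntl through sites called ROREs, at which Rora and related receptors activate. Dbp and its relatives Tef and Hlf are output transcription factors that bind the D-box, where Nfil3 represses. Ciart, also called Chrono, is a further repressor of the pair. In mouse tissues Arntl and Npas2 usually peak at about the time of day when Dbp, Per3 and Nr1d1 are low, so the hour of sampling bears on the level of each of these genes.

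The sites just named can be seen in the promoters of some of these genes. RefSeq windows of 300 bases (250 before the gene start to 50 after it, build GRCm38.p6) were matched for 9 of the 10 genes, in 13 windows. Capitals mark the E-box CACGTG, the D-box TTATGTAA and the RORE TAGGTCA in the windows below, each written 5′ to 3′ on the strand of the gene. The windows shown are 4 that hold a match to one of these.

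Ciart, chr3:95882179-95882478, minus strand: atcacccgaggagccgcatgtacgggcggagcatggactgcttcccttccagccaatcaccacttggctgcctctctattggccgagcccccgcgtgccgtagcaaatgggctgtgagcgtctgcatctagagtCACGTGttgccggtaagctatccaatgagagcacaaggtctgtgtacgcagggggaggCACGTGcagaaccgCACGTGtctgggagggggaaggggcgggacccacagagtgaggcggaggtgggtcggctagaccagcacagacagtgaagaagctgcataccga

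Per1, chr11:69098699-69098998, plus strand: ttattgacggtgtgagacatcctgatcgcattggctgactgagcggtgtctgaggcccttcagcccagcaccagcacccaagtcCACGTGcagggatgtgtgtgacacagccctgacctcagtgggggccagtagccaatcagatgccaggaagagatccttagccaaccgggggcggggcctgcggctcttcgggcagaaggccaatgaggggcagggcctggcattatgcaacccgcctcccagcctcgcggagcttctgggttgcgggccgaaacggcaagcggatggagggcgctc

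Per3, chr4:151044616-151044915, minus strand: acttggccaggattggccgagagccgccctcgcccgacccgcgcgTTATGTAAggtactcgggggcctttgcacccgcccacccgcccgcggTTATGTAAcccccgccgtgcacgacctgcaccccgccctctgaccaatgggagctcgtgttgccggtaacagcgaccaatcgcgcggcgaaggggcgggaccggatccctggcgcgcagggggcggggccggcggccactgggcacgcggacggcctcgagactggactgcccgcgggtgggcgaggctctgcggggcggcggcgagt

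Arntl, chr7:113207261-113207560, plus strand: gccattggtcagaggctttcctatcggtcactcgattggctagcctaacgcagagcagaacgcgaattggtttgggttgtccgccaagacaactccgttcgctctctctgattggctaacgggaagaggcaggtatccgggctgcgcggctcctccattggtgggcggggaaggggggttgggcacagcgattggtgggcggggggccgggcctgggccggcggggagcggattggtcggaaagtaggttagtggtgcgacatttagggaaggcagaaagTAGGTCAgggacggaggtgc

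The Ciart window held 3 copies of CACGTG, which began 116, 58 and 44 bases before the gene start. The Per1 window shown held 1 copy, 166 bases before the start. These were the 2 genes of 9 with CACGTG, a motif present in 7.15% of the 32851 windows of the table. A gene was counted if any of its windows held the motif, and Clock, Arntl and Per1 have several. Counts of genes and shares of windows are therefore unlike units. The variant CACGTT, found in 4.68% of all windows, lay in the Nr1d1 window only among the 9 genes, as AACGTG on the gene's strand, 28 bases before the start. The Per3 window held TTATGTAA at 205 and 158 bases before the start, and TTATGTAA or TTACGTAA occurred in 1.06% of all windows. The Arntl window held TAGGTCA beginning 30 bases after the start, and TAGGTCA or TGGGTCA occurred in 6.45% of all windows. Both strands were searched for each motif. No match lay in the windows of Dbp, Clock, Npas2 or Nr1d2, which says only that these letters are not in those bases.

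The libraries held 19066045 to 22760432 counts, and CPM values below are counts scaled to library size with TMM factors. Defining genes of keratinocytes were abundant in every library. The basal keratin Krt5 was at 4108 to 6905 CPM and the suprabasal keratin Krt10 at 7979 to 24254 CPM. Genes of other cell types were present too, among them the fibroblast collagens Col1a1 (4775 to 11360 CPM) and Col3a1 and the muscle actin Acta1 (1376 to 2854 CPM). The most abundant markers of the other lists were Krt14, Krt1, Tchh, Scd1, Car3, Vwf, Lyz2, S100a8, Trdc and Cd74, while the neutrophil marker Ly6g had no count in any library. All values below therefore describe a mixed tissue, in which fewer cells of a type and less RNA per cell cannot be told apart. On the first principal component of all genes tested (42.1% of the variance), the AKBA libraries lay at 26.3, 43.8 and 8.74 (replicates 1 to 3) and the control libraries at 0.0812, -32.8 and -46.2. Control replicate 1 thus lay nearer to AKBA replicate 3 than to either of the other control libraries.

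No clock gene passed the test between AKBA gel and control gel. By edgeR's quasi-likelihood test with Benjamini-Hochberg adjustment over all genes, 0 of the 10 clock genes and 0 of the 17023 genes tested (0%) had an adjusted p under 0.05. The DESeq2 Wald test called 304 of the 15752 genes with an adjusted p and 0 of the 10. The smallest edgeR adjusted p among the 10 was 0.339, for Per3. At an unadjusted p under 0.05, 2 of the 10 (Dbp and Per3) had a higher level with AKBA gel and 0 a lower level, against 6.45% of all genes tested on the higher side and 7.01% on the lower. The log2 fold change, AKBA gel over control gel, was above 0 for 9 of the 10 genes, with a median of 0.19. Over all genes tested it was above 0 for 50.4%, with a median of 0.0037.

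**Figure D1:**
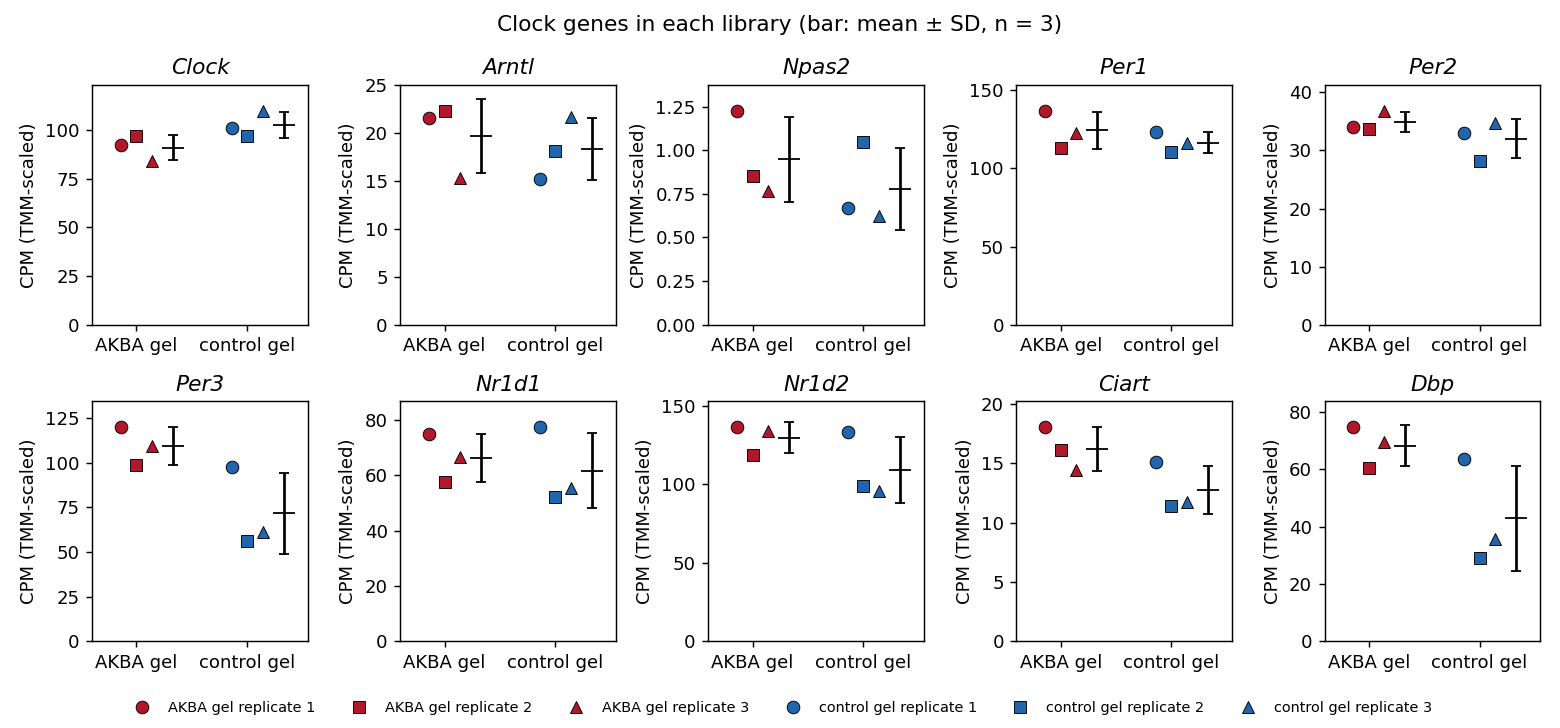
Level of each clock gene in TMM-scaled CPM (vertical axis from 0, one scale per gene) in the 3 AKBA gel and the 3 control gel libraries, with a symbol for each replicate and a bar for the mean ± SD. Dbp and Per3 are low in control replicates 2 and 3 (29.2 and 35.8 CPM for Dbp), while control replicate 1 lies at 63.7 CPM, among the AKBA libraries.

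The output factor Dbp (ENSMUSG00000059824, chromosome 7, 45705088 to 45710203) varied most among the 10 genes. It was at 74.7, 60.5 and 69.4 CPM in AKBA replicates 1 to 3, against 63.7, 29.2 and 35.8 CPM in control replicates 1 to 3. Control replicate 1 lay within the AKBA values, and the other control libraries lay far below all of them, so the groups overlapped through that 1 library. The means were 68.2 ± 7.19 CPM after AKBA gel and 42.9 ± 18.3 CPM after control gel (SD, n = 3 each). The log2 fold change was 0.67 ± 0.27 (SE), with an edgeR adjusted p of 0.358. Its SD on the log2 scale over the 6 libraries was larger than that of 94.3% of the 12261 genes with a mean of at least 5 CPM.

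Reads of Dbp may be shared with a neighbour. In the GENCODE M21 annotation 539 of the 2993 exon bases of Dbp overlap Sphk2, a sphingosine kinase gene on the opposite strand, and strand-specific counting is not stated. Sphk2 was at 79.8, 83.2 and 69.4 CPM in the AKBA libraries, against 62.8, 57.3 and 57.8 CPM in the control libraries. Its groups did not overlap, and its log2 fold change was 0.38 ± 0.11 (SE), with an edgeR adjusted p of 0.331. Control replicate 1 was low with the other control libraries for Sphk2, unlike for Dbp. How far shared reads bear on either gene was not tested.

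Per3, the period gene whose promoter window holds both D-box copies shown above, followed the order of Dbp closely (ENSMUSG00000028957, chromosome 4, 151003652 to 151044665). It was at 119.8, 98.7 and 109 CPM in the AKBA libraries, against 97.6, 56.3 and 61.0 CPM in the control libraries. The groups did not overlap, but control replicate 1 lay just below AKBA replicate 2 and far above the other control libraries. The means were 109 ± 10.6 CPM after AKBA gel and 71.6 ± 22.6 CPM after control gel (SD, n = 3 each), a log2 fold change of 0.61 ± 0.21 (SE) that did not pass (edgeR adjusted p = 0.339). It was the only gene of the 10 whose groups did not overlap, while 9.28% of all genes tested lay wholly higher and 9.1% wholly lower with AKBA gel.

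The other period genes differed little between libraries. Per1, which also responds to glucocorticoid and to stress signals (ENSMUSG00000020893, chromosome 11, 69095217 to 69109960), was at 137, 113 and 123 CPM in the AKBA libraries, against 123, 110.3 and 116 CPM in the control libraries. Per2 (ENSMUSG00000055866, chromosome 1, 91415982 to 91459324) was at 34.1, 33.6 and 36.9 CPM in the AKBA libraries, against 32.9, 28.3 and 34.7 CPM in the control libraries. For both genes the groups overlapped, and the highest library was 1.24 (Per1) and 1.30 (Per2) times the lowest. The log2 fold changes were 0.09 ± 0.11 (SE) for Per1 and 0.13 ± 0.12 for Per2, with edgeR adjusted p of 0.752 and 0.663. Control replicate 2 had the lowest value for both genes, as it had for Dbp and Per3.

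For the repressors Nr1d2, Nr1d1 and Ciart, control replicates 2 and 3 were the lowest libraries, with a smaller spread than for Dbp. These libraries also lay at the far end of the first principal component of all genes tested (-32.8 and -46.2). How many of all genes tested had control replicates 2 and 3 lowest was not counted, so the order is not shown to be particular to clock genes. Nr1d2 (ENSMUSG00000021775, chromosome 14, 18204054 to 18239127) was at 136, 119 and 134 CPM in the AKBA libraries, against 134, 98.9 and 95.7 CPM in the control libraries. Nr1d1 (ENSMUSG00000020889, chromosome 11, 98767932 to 98775333) was at 74.8, 57.4 and 66.7 CPM with AKBA gel, against 77.3, 52.2 and 55.4 CPM with control gel. Control replicate 1 lay within the AKBA values for Nr1d2 and above all of them for Nr1d1. Ciart, with its 3 E-boxes (ENSMUSG00000038550, chromosome 3, 95878503 to 95882251), was at 18.1, 16.2 and 14.4 CPM in the AKBA libraries, against 15.1, 11.4 and 11.7 CPM in the control libraries, and its groups overlapped because control replicate 1 lay above AKBA replicate 3. The log2 fold changes were 0.34 ± 0.16 (SE) for Ciart, 0.25 ± 0.15 for Nr1d2 and 0.11 ± 0.18 for Nr1d1, with edgeR adjusted p of 0.402, 0.513 and 0.830. In the annotation 263 of the 3077 exon bases of Nr1d1 overlap the thyroid hormone receptor gene Thra on the opposite strand, which was at 65.7, 60.7 and 71.7 CPM after AKBA gel and 67.8, 55.8 and 47.3 CPM after control gel.

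The activators did not share this order. Arntl (ENSMUSG00000055116, chromosome 7, 113207465 to 113314126) was at 21.5, 22.3 and 15.3 CPM in the AKBA libraries, against 15.1, 18.1 and 21.7 CPM in the control libraries. AKBA replicate 3 and control replicate 1 were its lowest libraries, and control replicates 2 and 3, the lowest for Dbp, were inside the range of the others. Clock (ENSMUSG00000029238, chromosome 5, 76209868 to 76304792) was at 92.3, 97.1 and 83.9 CPM with AKBA gel, against 101, 96.9 and 110.1 CPM with control gel, and was the only gene of the 10 with a log2 fold change below 0. Npas2 (ENSMUSG00000026077, chromosome 1, 39193731 to 39363236) was close to the limit of these libraries, with 25, 16 and 18 counts under AKBA gel, against 14, 24 and 13 counts under control gel. The groups overlapped for all 3 activators. Their log2 fold changes were 0.10 ± 0.19 (SE) for Arntl, -0.17 ± 0.11 for Clock and 0.27 ± 0.34 for Npas2, with edgeR adjusted p of 0.848, 0.510 and 0.760.

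Set side by side in each library, the ratio of Dbp to Arntl in CPM was 3.47, 2.71 and 4.55 in AKBA replicates 1 to 3. In control replicates 1 to 3 it was 4.20, 1.61 and 1.65. On this ratio control replicate 1 again lay inside the AKBA range, and the other control libraries lay below it. Within the AKBA group the ratio was highest in replicate 3, where Arntl was low, and lowest in replicate 2, where Arntl was high.

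**Figure D2:**
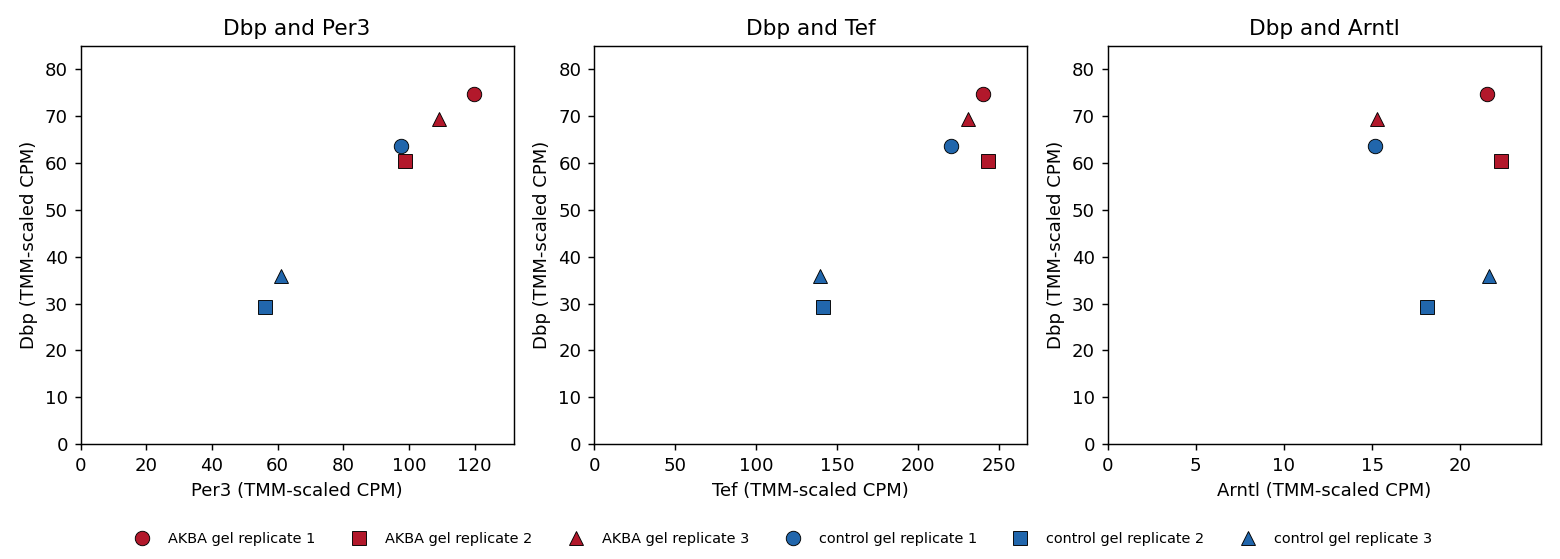
Dbp (vertical axis) against Per3, Tef and Arntl (horizontal axes) in TMM-scaled CPM, with 1 point per library and all axes from 0. Control replicates 2 and 3 stand apart from the other 4 libraries in Dbp, Per3 and Tef, whereas in Arntl they lie inside the range of the others (18.1 and 21.7 CPM).

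Levels of different genes were compared per kilobase, with the FPKM values of the authors' table. Dbp was the most abundant of the 10 (mean 33.3 ± 11.7 FPKM, SD over 6 libraries), followed by Nr1d2 (24.0 ± 4.35), Per1 (21.4 ± 2.01) and Nr1d1 (20.8 ± 3.82). Neighbours among these 4 genes overlapped in their ranges over the libraries. The next was Per3 (9.45 ± 2.86 FPKM), whose highest library, at 12.2 FPKM, lay below the lowest of Nr1d1, at 16.5 FPKM. Clock (7.04 ± 0.418 FPKM), Arntl (6.51 ± 0.901), Ciart (6.41 ± 1.17) and Per2 (5.71 ± 0.573) came next, each overlapping its neighbours. Npas2, at 0.12 to 0.25 FPKM, lay far below all others, so Clock mRNA was more abundant than Npas2 mRNA in this mixed tissue. Protein was not measured.

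Other genes of the clock loops were examined as a list of 17, all of which were tested. By edgeR 0 of the 17 passed. At an unadjusted p under 0.05 there were 4 with a higher level with AKBA gel (Hlf, Csnk1e and Tef among them) and 0 with a lower level. Over all genes tested 6.45% were higher and 7.01% lower at that p. The median log2 fold change of the list was 0.14, against 0.0037 over all genes tested. In 4 of the 17 (Tef, Hlf and Csnk1e among them) every AKBA library lay above every control library, and in 1 (Rorb) every AKBA library lay below. The shares over all genes tested were 9.28% wholly higher and 9.1% wholly lower.

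Tef and Hlf, the relatives of Dbp, were like Dbp lowest in control replicates 2 and 3. Within the AKBA group the order differed, as AKBA replicate 2 was highest for Tef and Hlf and lowest for Dbp. Hlf was at 31.5, 41.8 and 36.2 CPM in the AKBA libraries, against 27.9, 15.7 and 14.6 CPM in the control libraries, with control replicate 1 close below AKBA replicate 1 and the other control libraries far lower. Tef was at 240.2, 243 and 231 CPM with AKBA gel, against 220.3, 141 and 139 CPM with control gel, with the same gap. The log2 fold changes were 0.91 ± 0.25 (SE) for Hlf and 0.51 ± 0.19 for Tef, with edgeR adjusted p of 0.331 and 0.343. The DESeq2 Wald test called Hlf as higher with AKBA gel (adjusted p = 0.0463), and it called no gene of the 10 clock genes. It called 0.603% of the 15752 genes with an adjusted p as higher. In the authors' deposited table Hlf has a log2 fold change of 0.92 and an adjusted p of 0.0262 and is listed as not significant.

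Rora, an activator at ROREs, was at 316, 304 and 202 CPM with AKBA gel, against 261, 191 and 256 CPM with control gel, and the groups overlapped. Rorb, better known from the nervous system, was near the limit, at 0.736, 0.797 and 0.554 CPM after AKBA gel and 0.809, 1.96 and 0.862 CPM after control gel. The log2 fold changes were 0.22 ± 0.21 (SE) for Rora and -0.81 ± 0.42 for Rorb, with edgeR adjusted p of 0.680 and 0.448.

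The repressor Bhlhe41 (DEC2), which competes at E-boxes, was at 15.0, 11.1 and 13.4 CPM in the AKBA libraries, against 12.4, 8.21 and 6.80 CPM in the control libraries (log2 fold change 0.52 ± 0.24, SE). Control replicates 2 and 3 were its lowest libraries, as for Dbp. The casein kinases that mark period proteins for breakdown had fold changes of opposite sign. Csnk1e averaged 118 ± 15.2 CPM after AKBA gel and 92.5 ± 7.59 CPM after control gel (log2 fold change 0.35 ± 0.13, SE), and Csnk1d 158 ± 9.64 CPM (AKBA) and 176 ± 13.0 CPM (control) (SD, n = 3 each, log2 fold change -0.15 ± 0.11, SE). The edgeR adjusted p was 0.398 for Bhlhe41, 0.342 for Csnk1e and 0.587 for Csnk1d.

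**Figure D3:**
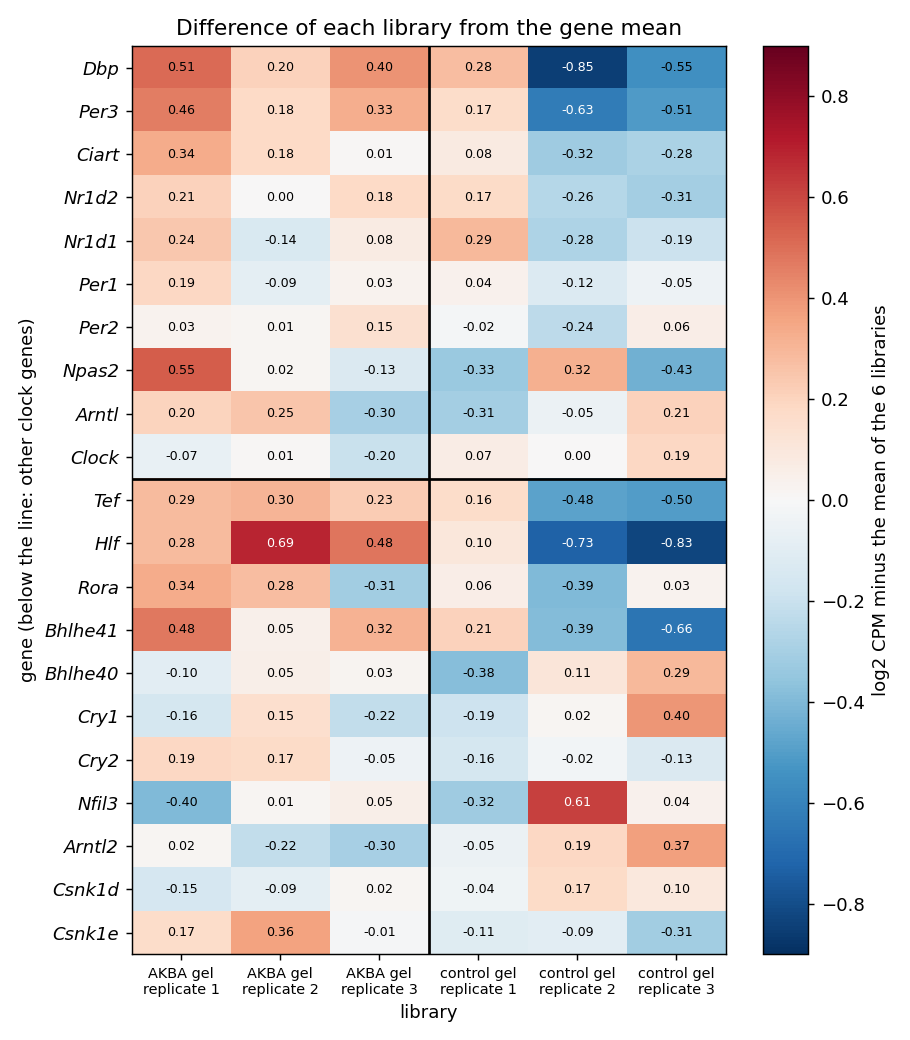
Log2 CPM of each library minus the mean of the 6 libraries for that gene (colour and number), with the 10 clock genes above the line and 11 other clock genes below it, and AKBA gel left of control gel. Control replicates 2 and 3 are below the mean for Dbp, Per3, Ciart, Nr1d2, Nr1d1, Tef, Hlf and Bhlhe41, and control replicate 1 is above it for all of these.

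Genes known to be driven by the clock or by glucocorticoid, the adrenal hormone that carries time of day to the tissues, were examined as a further list. Of 12 such genes tested, 0 passed by edgeR, and the median log2 fold change was -0.01. At an unadjusted p under 0.05 there were 0 higher and 1 lower with AKBA gel, against 6.45% and 7.01% of all genes tested. That gene was Fkbp5, a chaperone partner of the glucocorticoid receptor, at 65.0, 84.8 and 74.3 CPM in the AKBA libraries, against 111, 101 and 82.3 CPM in the control libraries. Tsc22d3 (GILZ), a glucocorticoid target, averaged 167 ± 20.4 CPM after AKBA gel and 165 ± 16.4 CPM after control gel, and the kinase gene Sgk1 193 ± 21.7 CPM (AKBA) and 166 ± 17.6 CPM (control) (SD, n = 3 each). Noct, a rhythmic phosphatase gene, had the lowest log2 fold change of the list, at 27.2, 35.1 and 30.4 CPM in the AKBA libraries, against 29.5, 42.1 and 67.6 CPM in the control libraries, with overlap. Control replicates 2 and 3 were the highest libraries for Noct, the reverse of Dbp.

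The protease gene Usp2, which is rhythmic in many tissues, averaged 49.6 ± 14.4 CPM after AKBA gel and 38.9 ± 4.46 CPM after control gel (SD, n = 3 each). Klf10, a zinc finger factor, averaged 77.9 ± 1.63 CPM (AKBA) and 99.9 ± 27.8 CPM (control), and Por, which passes electrons to cytochromes, 137 ± 7.42 CPM (AKBA) and 159 ± 14.1 CPM (control). The AKBA values of Klf10 and Por all lay below the control values, as did those of 9.1% of all genes tested. The cell cycle inhibitor Cdkn1a averaged 203 ± 27.1 CPM (AKBA) and 204 ± 54.1 CPM (control). The log2 fold changes ran from -0.59 for Noct to 0.35 for Usp2, with edgeR adjusted p of at least 0.345 for each of the 12 genes.

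**Figure D4:**
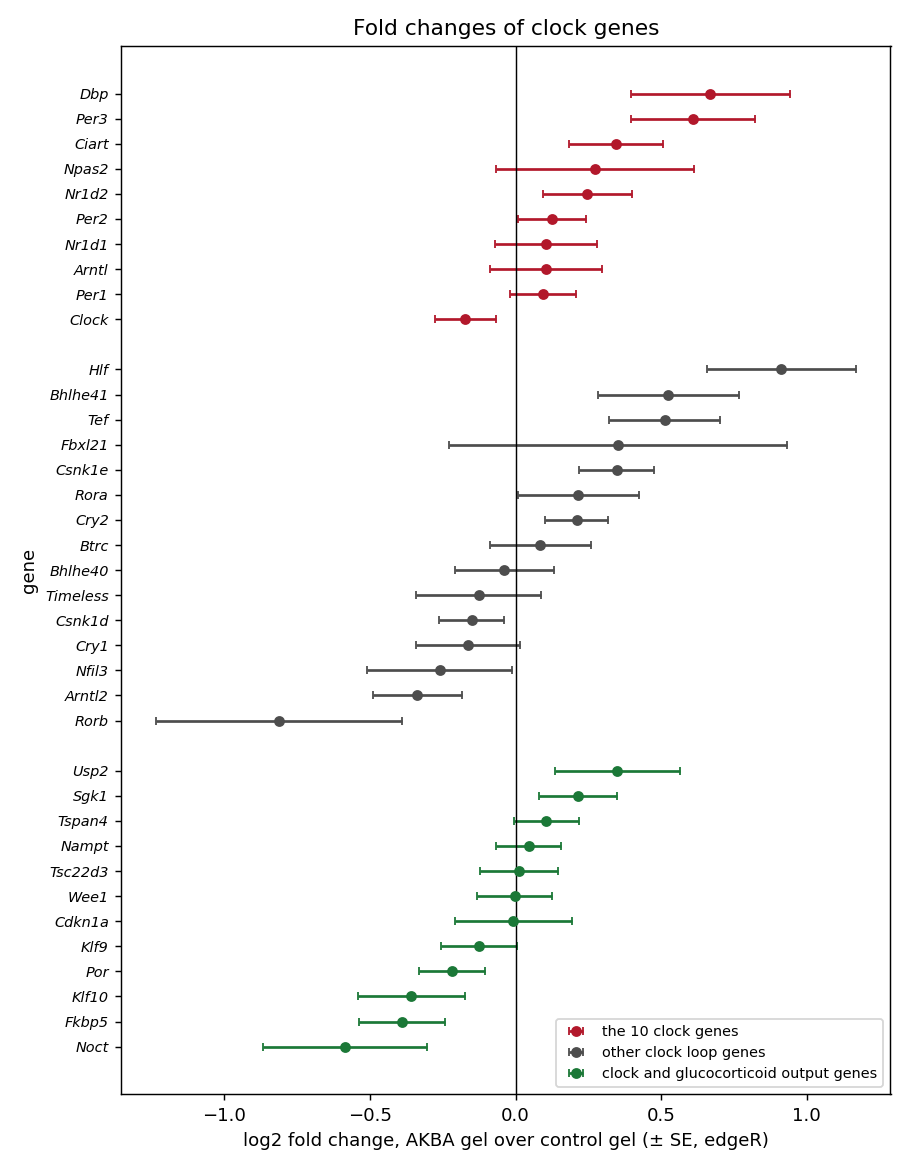
Log2 fold change, AKBA gel over control gel (horizontal axis), with its SE for the 10 clock genes, 15 of the other clock loop genes and 12 output genes, each block sorted by value. The members of the loops at the top of their blocks are Dbp (0.67), Per3 (0.61), Hlf (0.91) and Bhlhe41 (0.52), and no gene passed the edgeR threshold.

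The genes most like Dbp were found by the root mean square difference of centred log2 CPM over the 6 libraries, among 12252 genes of at least 5 CPM outside the 10. The nearest were Foxq1 (0.0869), Wnt16 (0.099), Nuak1 (0.104), Plagl1 (0.117) and Sox6 (0.117). Per3, at 0.107, would take rank 4 among these genes, while Ciart (0.308), Nr1d2 (0.315) and Nr1d1 (0.353) would take ranks 324, 362 and 665. Foxq1 was at 18.3, 13.9 and 14.9 CPM in the AKBA libraries, against 13.1, 6.94 and 8.19 CPM in the control libraries, and Nuak1 at 48.2, 45.8 and 52.9 CPM under AKBA gel, against 43.9, 23.5 and 26.0 CPM under control gel. For Arntl the nearest were Anxa8 (0.0477), Pdcd5 (0.0485), Gcat (0.0541), Dolpp1 (0.0562) and C77080 (0.0602). Clock, the partner of Arntl, stood at 0.216 from it, at rank 2545.

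Other features of the libraries also set control replicates 2 and 3 apart. The summed level of 9 suprabasal keratinocyte markers was 58704, 68309 and 37125 CPM in AKBA replicates 1 to 3, against 41984, 27756 and 33993 CPM in control replicates 1 to 3. That of 9 basal keratinocyte markers was 16344, 11802 and 14668 CPM with AKBA gel, against 15171, 21772 and 33798 CPM with control gel. Control replicates 2 and 3, which had the lowest Dbp, Per3, Tef and Hlf, thus had the lowest suprabasal and the highest basal sums. Among the other libraries the orders differed. AKBA replicate 2 had the highest suprabasal and the lowest basal sum, but the lowest Dbp of the AKBA libraries (60.5 CPM). Most of the basal sum in those libraries was Krt14, at 14360 and 24385 CPM. Most of the suprabasal sum was Krt1 (13351 and 16392 CPM) and Krt10 (8039 and 7979 CPM), so each sum mainly followed these genes. The members of each list did not all do the same. Control replicates 2 and 3 were the highest libraries for 5 of the 9 basal markers (Krt5, Krt14, Itga6, Itgb4 and Trp63) and the lowest for 2 (Krt15 and Dst). They were the lowest libraries for 4 of the 9 suprabasal markers (Krt1, Krt10, Lor and Flg), while control replicate 3 was the highest library for 3 others (Krtdap, Dsc1 and Sbsn). The summed level of 15 immediate early and stress genes, which respond to handling of a tissue, was 968 to 1177 CPM after AKBA gel and 1080 to 1885 CPM after control gel, highest in control replicates 2 and 3. None of these lists had a member with a count of 0 in all libraries, and the part of each in the levels of the clock genes was not tested.

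Of the 15 immediate early and stress genes 0 passed by edgeR. At an unadjusted p under 0.05 there were 6 with a lower level and 1, Egr2, with a higher level with AKBA gel. Over all genes tested 7.01% were lower and 6.45% higher at that p. Fos was at 10.5, 11.9 and 10.4 CPM in the AKBA libraries, against 19.3, 39.4 and 54.4 CPM in the control libraries, and Nr4a1 at 10.5, 9.57 and 9.46 CPM under AKBA gel, against 14.1, 32.8 and 20.7 CPM under control gel. The DESeq2 Wald test called Fos (adjusted p = 0.000107), Fosb (0.00809) and Nr4a1 (0.00898) as lower with AKBA gel. It called 209 of the 15752 genes with an adjusted p as lower. Fosb, much lower, was at 0.442, 1.17 and 1.11 CPM after AKBA gel and 2.43, 2.84 and 8.14 CPM after control gel. Junb averaged 108 ± 6.61 CPM after AKBA gel and 202 ± 87.6 CPM after control gel, Jun 108 ± 2.14 CPM (AKBA) and 117 ± 18.7 CPM (control), Klf4 443 ± 79.6 CPM (AKBA) and 587 ± 192 CPM (control) and Egr3 76.2 ± 7.73 CPM (AKBA) and 64.8 ± 5.78 CPM (control) (SD, n = 3 each).

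Among the sums of other marker lists, that of neutrophil markers was also highest in control replicates 2 and 3, at 453 and 1400 CPM. It was 341 CPM in control replicate 1 and 192 to 390 CPM with AKBA gel. S100a8 alone was at 411 and 1352 CPM in control replicates 2 and 3, so the sum mainly followed this gene. Csf3r was also highest in those libraries, whereas Cxcr2 and the sparsely counted Retnlg, Ngp and Camp were not. The skeletal muscle sum was lowest in control replicates 2 and 3, at 5563 and 7173 CPM, and the other sums had other orders. Taken singly, Ckm, Tnnt3, Mylpf and Atp2a1 were lowest in both of these libraries. The other muscle markers were not, and Myh1 was lowest in control replicate 1. Skeletal muscle markers, from a tissue with a strong clock of its own, summed to 7561 to 9146 CPM after AKBA gel and 5563 to 10393 CPM after control gel over 10 genes. Fibroblast markers summed to 19916 to 26386 CPM (AKBA) and 19585 to 36107 CPM (control) over 8 genes, and hair follicle markers to 40.8 to 2133 CPM (AKBA) and 109 to 3029 CPM (control) over 8 genes. The sum of 8 macrophage markers lay wholly lower with AKBA gel, at 1529 to 1661 CPM against 1704 to 2346 CPM with control gel. Taken singly, 4 of the 8 lay wholly lower and 0 wholly higher, against 9.1% and 9.28% of all genes tested. The remaining sums overlapped between the groups, namely sebaceous gland, adipocyte, endothelial, neutrophil, T cell and Langerhans cell markers.

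The size of the fold changes of Dbp, Per3, Hlf and Tef varied with the control library left out. It was largest without control replicate 1 and smaller than in the full fit without either of the other control libraries. Without control replicate 1, the log2 fold changes were 1.08 ± 0.15 (SE) for Dbp, 0.91 ± 0.13 for Per3, 1.28 ± 0.16 for Hlf and 0.77 ± 0.12 for Tef. The edgeR adjusted p was then 0.0708 for Dbp, Per3 and Hlf and 0.0813 for Tef, none past the threshold, in a fit that called 14 genes. Without control replicate 2 the values were 0.45 ± 0.25 for Dbp and 0.45 ± 0.22 for Per3, and without control replicate 3 they were 0.56 ± 0.31 and 0.51 ± 0.23. In the authors' deposited table the log2 fold changes of Dbp and Per3 are 0.72 and 0.65, with adjusted p of 0.192 and 0.179, and 0 of the 10 clock genes are among the 273 genes listed as significant.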

How the data were processed

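The authors deposited a table with whole-number counts and FPKM values for each gene and library, beside their own log2 fold changes, p-values and adjusted p-values. The submitters' processing notes name RSEM, edgeR, CASAVA 1.8 and the build GRCm38 without role or order, and rounding of estimated counts is not stated. The deposited FPKM values were used only to compare genes with each other, and the deposited log2 fold changes and p-values are quoted as the authors' own.

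The 6 count columns were tested with edgeR 4.0.16 in R 4.3.3 (TMM scaling, default low-count filter, 17023 genes kept, 2-sided quasi-likelihood F test, Benjamini-Hochberg adjustment over all genes, threshold 0.05). A standard error is the absolute log2 fold change divided by the square root of F. Centred log2 CPM values used a prior count of 2. The count test was tested on simulated data. Depth puts 3 counts at 0.132 to 0.157 CPM, which covers counting error only. No pair of libraries within a group matched to sampling noise (lowest chi-square per degree of freedom 30.8), and all 6 enter as separate samples.

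The 10 genes and the gene lists were chosen with earlier results of these data known. Named were all 10 genes, the 4 most abundant and the 4 genes of largest absolute log2 fold change of each clock or stress list, the 5 genes nearest to Dbp and to Arntl, and the most abundant marker of each cell type with Ly6g, Krt5, Krt10, Col1a1 and Acta1. Egr2, for an unadjusted p, Sphk2 and Thra, for exon overlap, and further keratinocyte markers, for the order of their libraries, were added after their values were seen. Some genes of the lists are counted but not reported here by name. Gene positions come from the GENCODE M21 annotation of GRCm38. Alternatives were DESeq2 size factors, other low-count filters, a replicate block, omission of each library, omission of AKBA replicate 2 together with control replicate 3, the DESeq2 1.42.0 Wald test and other promoter windows and motif letters.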

Additional observations from a re-analysis of the deposited data

How the results depend on the processing

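None of the 10 clock genes passed under any of the 12 alternatives. Over all genes the DESeq2 Wald test called 304 genes (95 higher and 209 lower with AKBA gel) and 1 of the 17 other clock loop genes, Hlf. Leaving out 1 library gave 0 to 14 calls over all genes, the 14 without control replicate 1. With DESeq2 size factors, other filters or both AKBA replicate 2 and control replicate 3 left out there were 0 calls. Replicate numbers did not pair the libraries (correlations of same-numbered deviations 0.0753, -0.0018 and -0.39), and the fit with the replicate block called 0 genes, with 1857 at an unadjusted p under 0.05 against 2291 without it.

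Fold changes of Clock, Npas2, Per1, Per2, Per3, Dbp, Nr1d2 and Ciart kept their sign throughout. With 1 library left out Arntl ranged from -0.0041 to 0.27 and Nr1d1 from -0.0093 to 0.31. Cdkn1a (-0.14 to 0.23), Tsc22d3 (-0.092 to 0.094) and Jun (-0.19 to 0.027) changed sign too. Cdkn1a was at 0.0047 with the stricter filter and 0.017 with the replicate block, and with both libraries left out Cdkn1a was at 0.14, Tsc22d3 at -0.0097 and Jun at 0.021. The cause was not tested. Npas2, Rorb and Fosb were not tested with the stricter filter. CACGTG lay in 1 gene (Ciart) within the 150 bases before the start, in place of 2 in the whole window. With CACGTT counted too, the whole window gave 3 genes. The D-box match of Per3 and the RORE match of Arntl lay outside those 150 bases.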
